A study of Homo sapiens with 36 samples.

Results

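The genes described here are 40 genes of the NF-kB pathway and of inflammatory signalling, taken from a written list of pathway components and known targets. The list uses no measured value, but it was chosen with earlier results of these data known. All 40 were present among the 28516 gene symbols of the count table, and 37 of them were among the 19689 genes with at least 10 counts over all libraries, which were tested. The list holds 5 NF-kB subunits, 5 members of the IkB family, 4 ubiquitin regulators, 8 adaptors and kinases, 2 receptors, 9 cytokines, 2 adhesion molecules and 5 other targets. Their RNA was measured in human neural stem cells (hNSC) 48 h after lentiviral transduction, with 6 libraries for each of 6 conditions.

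CRISPR-activation was directed to MEIS1 (MEIS1-OE) or MEIS2 (MEIS2-OE), homeodomain transcription factors of the same family, by a Cas9 that does not cut, and in MEIS1-KO and MEIS2-KO a cutting Cas9 was directed to the same genes. Non-targeting guide RNA in the same systems gave the controls, ctrl-OE and ctrl-KO, so that no group was free of virus. Activation needed several vectors (for the guide RNA, for dCas-VP64 and for the MS2-p65-HSF1 fusion), while the knockout used a single vector, lentiCRISPRv2, and the volumes of virus differed. The system, the vectors and the dose of virus therefore cannot be told apart between ctrl-OE and ctrl-KO. All libraries came from a single commercial cell product and nothing in the sources used here says that the 6 libraries of a condition came from independent cultures, so p-values measure the spread between these samples, which may be partly technical. These are bulk data, in which fewer cells of a type and less RNA per cell cannot be told apart.

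NF-kB is a family of dimeric transcription factors, built from RELA, REL, RELB and the processed products of NFKB1 and NFKB2, that IkB proteins hold in the cytoplasm. Signals from receptors such as TLR4 or the TNF and IL-1 receptors run through adaptors and kinases, IkB is degraded, and the freed dimers enter the nucleus. Several of their target genes, among them NFKBIA and TNFAIP3, feed back on the pathway, and others encode cytokines, chemokines and adhesion molecules. In neural tissue the pathway is best known from glial cells and from responses to infection and injury.

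NF-kB dimers recognize a short DNA element, the kB site. The table of RefSeq promoters (GRCh38.p14) had an entry for 35 of the 40 members, running from 250 bases before to 50 bases after the transcription start, with more than 1 start for 12 of them. A kB motif, GGGA and TTCC separated by any 2 bases, searched on both strands, occurred in 14 of these 35 members (40%) and in 537 of 27303 genes (1.97%). A looser kB consensus, which includes every match of the former, occurred in 19 of the 35 (54.3%) and in 13.3% of all genes. The core TGACAG, which MEIS proteins recognize, occurred in 8 of the 35 (22.9%) and in 18.6% of all genes, and its matches were counted apart from those of the kB motifs. A match is a string of letters and not evidence of binding, and many members were listed because they are known targets.

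The windows below show the match in capitals, read along the strand of the gene. They are shown for feedback regulators (TNFAIP3, NFKBIA, TNIP1, CYLD) and for subunits (NFKB1, NFKB2, REL), whose RNA is compared below, and for cytokines with intact motifs but few counts (CXCL1, CXCL3, IL6). In TNFAIP3, NFKBIA and CYLD the match lies on the opposite strand, and where 11 bases are in capitals (REL, CXCL1, CXCL3) matches on both strands overlap.
TNFAIP3 (chr6:137867167-137867226, + strand): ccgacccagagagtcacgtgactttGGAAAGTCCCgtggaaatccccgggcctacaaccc
NFKBIA (chr14:35404796-35404855, - strand): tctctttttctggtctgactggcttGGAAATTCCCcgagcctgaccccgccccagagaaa
TNIP1 (chr5:151081042-151081101, - strand): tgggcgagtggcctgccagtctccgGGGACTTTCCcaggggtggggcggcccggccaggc
CYLD (chr16:50741872-50741931, + strand): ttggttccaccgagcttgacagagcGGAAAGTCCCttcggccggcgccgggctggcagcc
NFKB1 (chr4:102501285-102501344, + strand): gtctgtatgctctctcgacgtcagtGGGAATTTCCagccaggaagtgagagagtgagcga
NFKB2 (chr10:102395659-102395704, + strand): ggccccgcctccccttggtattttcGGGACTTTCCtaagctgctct
REL (chr2:60881502-60881562, + strand): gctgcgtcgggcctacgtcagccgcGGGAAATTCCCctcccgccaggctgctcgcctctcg
CXCL1 (chr4:73869289-73869349, + strand): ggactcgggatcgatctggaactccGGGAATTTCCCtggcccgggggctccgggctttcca
CXCL3 (chr4:74038733-74038793, - strand): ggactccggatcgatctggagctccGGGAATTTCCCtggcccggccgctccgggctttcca
IL6 (chr7:22727102-22727161, + strand): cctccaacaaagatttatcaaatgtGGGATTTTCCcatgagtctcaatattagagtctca

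ICAM1 had no match to either kB motif in this window, and carried the core TGACAG on the opposite strand, 128 to 123 bases before its start. Sites that depart from both kB patterns are not found by such a search. TLR4 and TNFAIP3 had no match to TGACAG. The other members with it (NFKB1, NFKB2, NFKBIB, TNIP1, CYLD, TRAF1 and TNFAIP2) had an adjusted p above 0.05 in MEIS1-OE against ctrl-OE (edgeR). The ICAM1 window is shown because this gene had the largest difference of the members between MEIS1-OE and ctrl-OE among those called.
ICAM1 (chr19:10270967-10271022, + strand): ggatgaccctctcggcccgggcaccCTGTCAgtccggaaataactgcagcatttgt

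Library totals of reads on genes ran from 15429985 to 22940493 (median 20324720). The targeted genes followed the labels. MEIS1 reached 287 to 323 CPM (counts scaled to the library total with TMM factors) in MEIS1-OE, against 15.7 to 18.8 in ctrl-OE, and 6.43 to 11.2 in MEIS1-KO, against 23.7 to 28.0 in ctrl-KO. MEIS2 reached 793 to 852 CPM in MEIS2-OE, against 20.5 to 24.1 in ctrl-OE, and 10.5 to 13.4 in MEIS2-KO, against 23.5 to 27.4 in ctrl-KO. All 9 neural stem cell markers examined were expressed in every condition. Of 8 markers of microglia and other leukocytes, 6 had a mean under 0.5 CPM in every condition, PTPRC reached at most 0.116 CPM in any library and P2RY12 had no count. The sum of the leukocyte markers ranged from 5.65 to 10.2 CPM over all 36 libraries. Most of it came from TMEM119 (group means of 4.83 to 6.11 CPM) and AIF1 (0.992 to 1.74 CPM). The library MEIS1-OE replicate 3 stood apart: it was the lowest of its condition for 18 of the 37 tested members (48.6%), as it was for 33.2% of the 14508 genes with a mean count of at least 10. Its distance to the mean of its condition was the largest of all libraries (0.382, root mean square on the log2 scale), followed by MEIS1-KO replicate 6 (0.374) and ctrl-OE replicate 6 (0.336). Member results that changed without MEIS1-OE replicate 3 are given with and without it.

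Per length of transcript, the members spanned several orders of magnitude. In ctrl-KO, IRAK1, a kinase that acts below the IL-1 and Toll-like receptors, had 24.9 CPM per kb of its canonical transcript, RELA, the p65 subunit, 20.9 and BIRC2, a ubiquitin ligase bound to TRAF2, 18.0. The IkB protein gene NFKBIA had 11.6 CPM per kb and ICAM1, an adhesion molecule that binds leukocyte integrins, 8.34. At the other end, PTGS2, the inducible cyclooxygenase, had 0.00535 and TNF 0.0304 CPM per kb. These levels use 1 canonical transcript per gene, which is unusually long for SOD2 (14167 bases), TLR4 (12677 bases) and REL (11108 bases), so that their levels per kb depend on the choice of transcript.

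**Figure D1:**
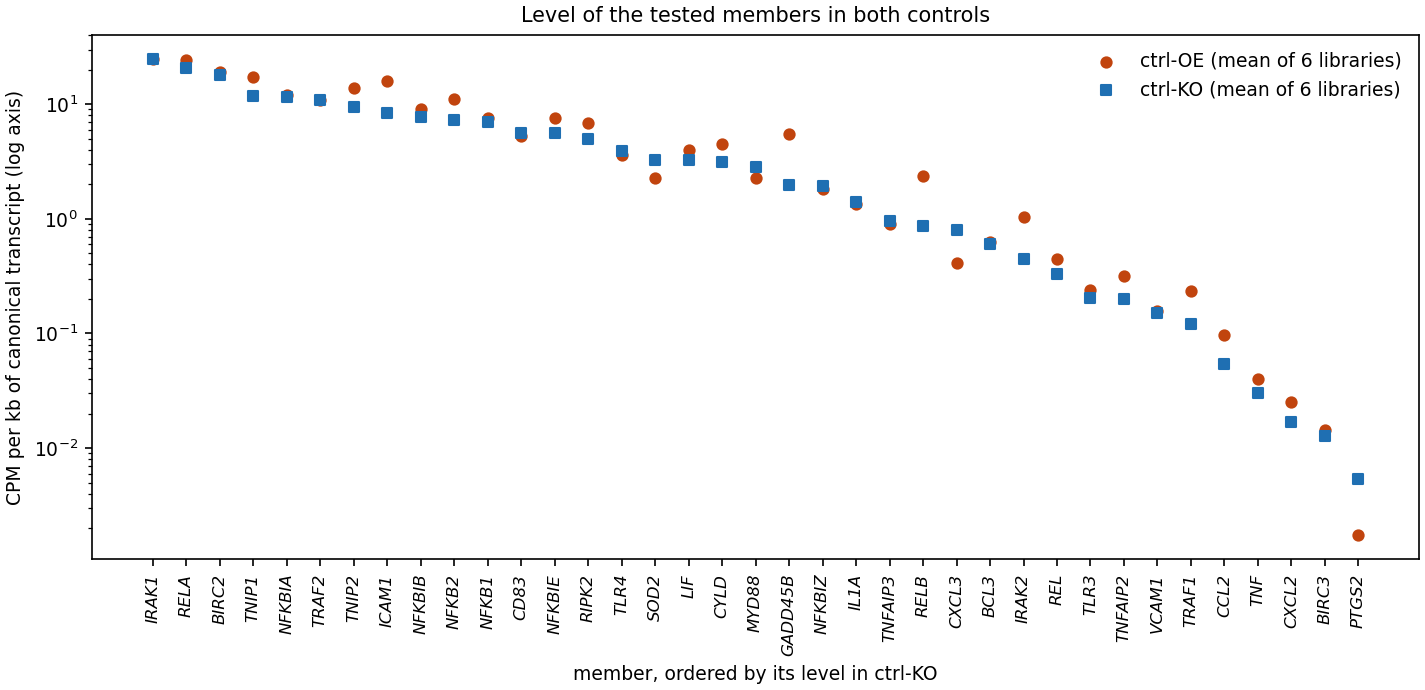
Level of the 37 tested members, as mean CPM per kb of canonical transcript over 6 libraries (log axis), in ctrl-OE (circles) and ctrl-KO (squares), ordered by the level in ctrl-KO. IRAK1, RELA and BIRC2 were highest and TNF, CXCL2, BIRC3 and PTGS2 lowest, while RELB, GADD45B, IRAK2 and CXCL3 differed visibly between the controls.

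The inflammatory cytokines were near the limit of detection. Over all 36 libraries together, IL6 had 3 counts, IL1B had 4, all in 1 library of MEIS1-KO, and CXCL1 had 5, and these 3 genes were not tested. TNF, the founding cytokine of its family, had 63 counts in all and a median of 1.5 per library, and CCL2, a chemokine for monocytes, had 62 and a median of 1. CXCL2 had 11 counts, the cyclooxygenase gene PTGS2 had 12, and BIRC3, a paralog of BIRC2 induced by NF-kB in many cells, had 91. None of these genes passed in any comparison. The lowest adjusted p among the comparisons of MEIS with its control was that of CCL2 in MEIS1-OE, with 28 counts against 10 in ctrl-OE, a log2 fold change of 1.51, a 95% interval of 0.27 to 2.76 and an adjusted p of 0.126 in edgeR. LIF, a cytokine of the IL-6 family that acts on neural progenitors, and IL1A had more counts, with group means of 12.6 to 18.3 CPM and of 2.30 to 4.81 CPM, and CXCL3 had a median of 13 counts per library. In all, 21 members had a median of at least 100 counts per library, 10 had 10 to 99 and 6 tested members had fewer.

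In what follows, a gene passed the test when its adjusted p was under 0.05 (edgeR's quasi-likelihood test, two-sided, Benjamini-Hochberg over all 19689 tested genes), and was called when its absolute log2 fold change also exceeded 0.58. Values with neither are given as values.

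The comparison of MEIS1-OE with ctrl-OE asks which genes responded to activation of MEIS1. ICAM1 rose 2.37-fold, the lipopolysaccharide receptor gene TLR4 1.91-fold and TNFAIP3, whose product A20 edits ubiquitin chains and restrains NF-kB signalling, 1.81-fold. These 3 of the 37 tested members were called (8.11%), against 2.84% of all tested genes, and all 3 were higher. The IkB family gene BCL3 also passed the test without reaching the fold threshold, so that 4 members passed (10.8%), against 9.10% of all genes. None of the 5 subunits passed, and the median log2 fold change of the 37 members was 0.04 and that of all tested genes -0.00. By unadjusted p under 0.05 (edgeR) there were 6 of the 37 members and 3953 of all 19689 tested genes.

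For ICAM1 (chr19:10381769-10397291, + strand, GRCh37), the lowest, median and highest library of ctrl-OE had 42.4, 47.5 and 51.1 CPM, those of MEIS1-OE 98.1, 115 and 120 CPM, and those of MEIS2-OE 41.3, 49.2 and 50.2 CPM. Every MEIS1-OE library lay above every ctrl-OE and MEIS2-OE library. The log2 fold change of MEIS1-OE against ctrl-OE was 1.24 ± 0.07 (SE, n = 6 per group, edgeR, Benjamini-Hochberg adjusted p = 1.98e-17), and 1.28 without MEIS1-OE replicate 3. Against ctrl-OE, MEIS2-OE had a log2 fold change of 0.02 with a 95% interval of -0.12 to 0.15. The difference between MEIS1-OE and MEIS2-OE was itself called, with a log2 fold change of 1.23 ± 0.07 (edgeR, adjusted p = 2.58e-17). ICAM1 shares 815 exonic bases with the antisense gene ICAM4-AS1 in the GENCODE annotation, and since the strand setting of the counting is not given in the sources used here, reads of the pair may be mixed.

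TLR4 (chr9:120466453-120487013, + strand, GRCh37) behaved otherwise, since it was higher in both activation groups. Its ctrl-OE libraries had 41.5, 44.4 and 52.1 CPM (lowest, median, highest), those of MEIS1-OE 81.0, 84.2 and 96.5 CPM, and those of MEIS2-OE 75.8, 78.2 and 93.0 CPM. No library of either activation group overlapped with ctrl-OE. The log2 fold change was 0.94 ± 0.07 in MEIS1-OE (edgeR, adjusted p = 3.72e-14) and 0.84 ± 0.07 in MEIS2-OE (adjusted p = 2.99e-12). Between MEIS1-OE and MEIS2-OE it was 0.09, with a 95% interval of -0.04 to 0.23. Of its exonic bases, 678 are shared with a further annotated gene on the same strand that is not listed in the count table.

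For TNFAIP3 (chr6:138188351-138204451, + strand, GRCh37), ctrl-OE libraries had 3.71, 4.17 and 4.68 CPM, MEIS1-OE libraries 5.89, 7.25 and 9.27 CPM, and MEIS2-OE libraries 5.81, 6.61 and 7.18 CPM. Again neither activation group overlapped with its control. The log2 fold change was 0.85 ± 0.11 in MEIS1-OE (edgeR, adjusted p = 9.94e-08), 0.91 without MEIS1-OE replicate 3, and 0.64 ± 0.11 in MEIS2-OE (adjusted p = 0.000162). The difference between MEIS1-OE and MEIS2-OE was 0.21 with a 95% interval of 0.01 to 0.42, and it did not pass after adjustment (adjusted p = 0.247). These values rest on 83 to 107 counts per library in ctrl-OE, 117 to 206 in MEIS1-OE and 122 to 147 in MEIS2-OE.

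BCL3, an unusual IkB protein that acts in the nucleus, had 0.985, 1.17 and 1.44 CPM in ctrl-OE (lowest, median, highest) and 1.40, 1.74 and 2.23 CPM in MEIS1-OE. The highest control library exceeded the lowest of MEIS1-OE, and 5 of 6 MEIS1-OE libraries lay above all controls. Its log2 fold change of 0.576 ± 0.17 (edgeR, adjusted p = 0.0215) fell just short of the fold threshold, which it passed without ctrl-OE replicate 1 or 5 or without MEIS1-OE replicate 4, 5 or 6 (0.58 to 0.64). It lost the adjusted p without ctrl-OE replicate 4 (0.0525), MEIS1-OE replicate 1 (0.0606) or MEIS1-OE replicate 2 (0.0766). RELA had a log2 fold change of 0.13 with all libraries and 0.18 without MEIS1-OE replicate 3, and passed in the latter case (edgeR, adjusted p = 0.302 and 0.0469).

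**Figure D2:**
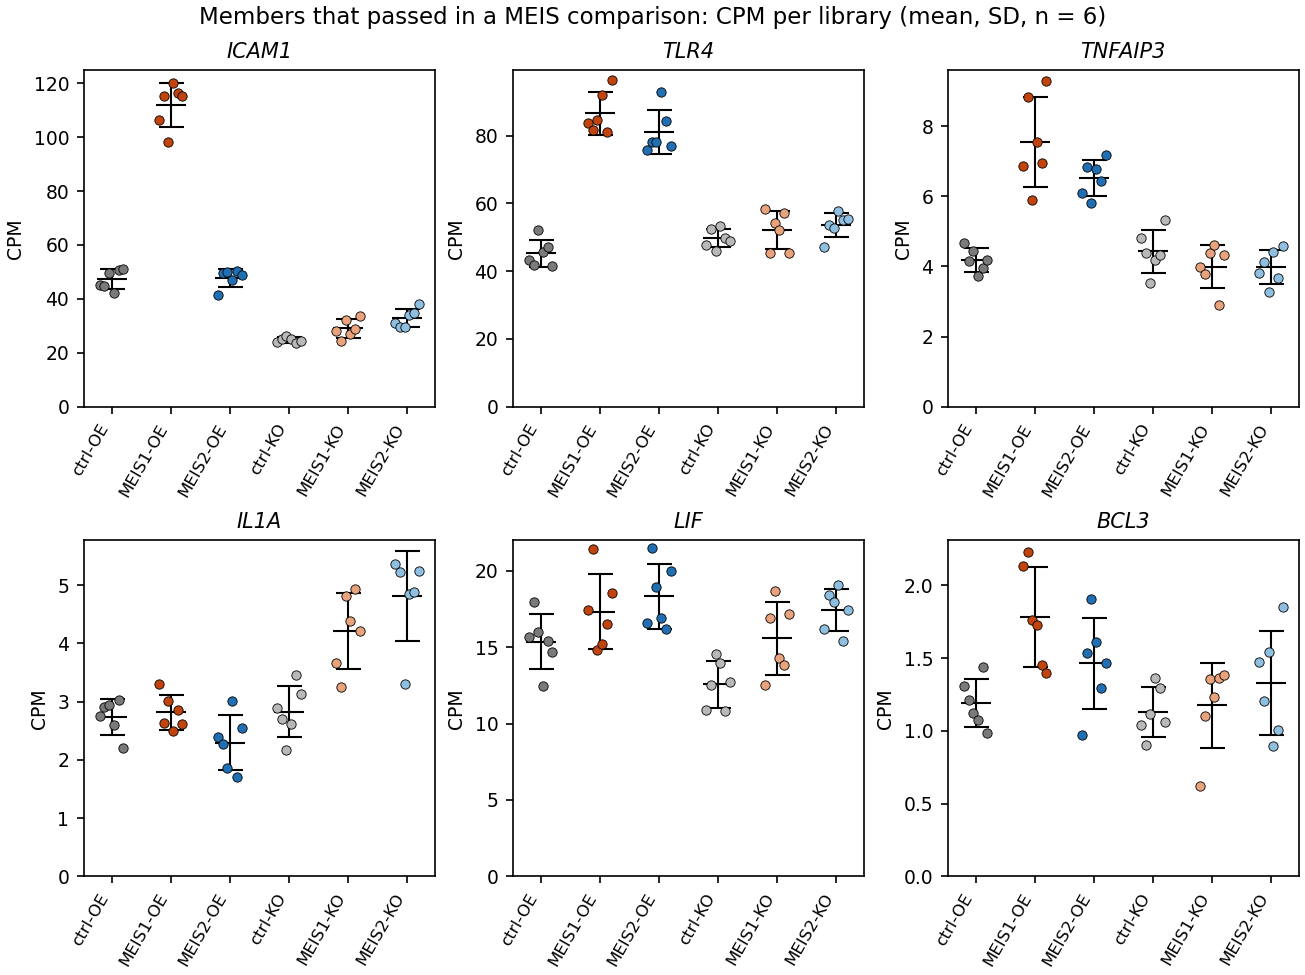
CPM of ICAM1, TLR4, TNFAIP3, IL1A, LIF and BCL3 in each of the 36 libraries by condition (points), with the mean and SD (bars, n = 6). ICAM1 in MEIS1-OE (98.1 to 120 CPM) and TLR4 and TNFAIP3 in both activation groups stand clear of ctrl-OE, whereas IL1A is higher in both knockouts.

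In MEIS2-OE against ctrl-OE, TLR4 and TNFAIP3 were the 2 members called (5.41% of 37, against 0.498% of all tested genes), and no other member passed (1.35% of all genes did). In all 5 members had an unadjusted p under 0.05, as had 1505 of all 19689 tested genes. Among these members was LIF, with a log2 fold change of 0.26 (edgeR, adjusted p = 0.376). The direct comparison of MEIS1-OE with MEIS2-OE called 1 member, ICAM1 (2.70%, against 2.70% of all genes), and 2 members passed (5.41%, against 7.75% of all genes). The second was TLR3, the receptor for double-stranded RNA, with 1.46 to 2.07 CPM in MEIS1-OE and 0.877 to 1.67 CPM in MEIS2-OE, and a log2 fold change of 0.56 ± 0.17 (adjusted p = 0.0399). Its adjusted p rose above 0.05 without MEIS1-OE replicate 1, 3, 4 or 6 and without MEIS2-OE replicate 1, 2, 4, 5 or 6, with values of 0.0541 to 0.118, and its log2 fold change exceeded the fold threshold without MEIS1-OE replicate 2 or 5 or without MEIS2-OE replicate 3 (0.59 to 0.68). TLR3 also missed the adjusted p with only these groups fitted (0.0553), without the 3 libraries farthest from their condition (0.0548) and in DESeq2 (0.0507), where shrinkage with ashr lowered its log2 fold change to 0.22. Without MEIS1-OE replicate 3, NFKB2 (0.32), the IkB gene NFKBIE (0.27) and CYLD, a deubiquitinase (-0.21), passed instead (adjusted p = 0.00851, 0.0283 and 0.0391).

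Markers of cell types were examined in the same comparisons. Of all tested genes 9.10% passed in MEIS1-OE and 1.35% in MEIS2-OE. Against ctrl-OE, MEIS1-OE had 1 of 4 tested pericyte and fibroblast markers higher (PDGFRB, log2 fold change 0.30), 2 of 9 neural stem markers lower, 1 of 5 astrocyte markers lower and 1 of 7 leukocyte markers lower (TMEM119, -0.33). Neural stem markers summed to 3362 to 4276 CPM in MEIS1-OE and 3039 to 3909 CPM in ctrl-OE, with medians of 3701 and 3263 CPM. Astrocyte markers summed to 7.36 to 10.6 CPM in MEIS1-OE and 8.46 to 14.7 CPM in ctrl-OE. The summed leukocyte markers were 5.65 to 7.87 CPM in MEIS1-OE and 6.73 to 10.2 CPM in ctrl-OE, and those of pericytes and fibroblasts 226 to 299 and 216 to 293 CPM. MEIS2-OE had 1 of 5 endothelial markers higher (KDR, 0.36), with sums of 115 to 154 CPM against 92.0 to 120 in ctrl-OE. Their part in the results was not tested.

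The comparison of MEIS1-KO with ctrl-KO asks what differed when a cutting Cas9 was directed to MEIS1. The guide RNA of ctrl-KO was non-targeting, so that cutting of the genome and loss of MEIS1 cannot be told apart. The same holds for MEIS2-KO and MEIS2. No member was called there, against 0.290% of all tested genes, and 1 passed (2.70%, against 1.46% of all genes), namely IL1A, which encodes the alarmin IL-1 alpha. An unadjusted p under 0.05 was found for 6 of the 37 members and for 2277 of all 19689 tested genes (edgeR), and DESeq2 also called 0 members. Other members with a low unadjusted p were LIF (log2 fold change 0.31), ICAM1 (0.23), SOD2 (-0.17), NFKBIZ (0.27) and GADD45B (0.68), with adjusted p of 0.106 to 0.373 in edgeR.

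In MEIS2-KO against ctrl-KO, IL1A rose 1.68-fold and was the only member called (2.70%, against 1.58% of all genes). With the test alone 5 members passed (13.5%, against 10.0% of all genes). IL1A, LIF and ICAM1 were higher, and the mitochondrial superoxide dismutase gene SOD2 and the c-Rel gene REL were lower. The median log2 fold change of the members was 0.08 and that of all tested genes -0.01.

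IL1A (chr2:113531502-113542070, - strand, GRCh37) had 2.18, 2.80 and 3.46 CPM in ctrl-KO (lowest, median, highest), 3.25, 4.30 and 4.93 CPM in MEIS1-KO, and 3.30, 5.06 and 5.36 CPM in MEIS2-KO. In each knockout 5 of 6 libraries lay above all controls and the lowest fell within their range. The log2 fold change was 0.57 ± 0.13 in MEIS1-KO (edgeR, adjusted p = 0.0136) and 0.75 ± 0.13 in MEIS2-KO (adjusted p = 0.000140). In MEIS1-KO the adjusted p was lost without ctrl-KO replicate 3 (0.0511) or MEIS1-KO replicate 3 (0.0579), and the fold threshold was passed without ctrl-KO replicate 5 or 6 or MEIS1-KO replicate 1 or 2 (0.60 to 0.63), which gave a count of 1 member called. In the activation system its medians were 2.83 CPM in ctrl-OE, 2.75 in MEIS1-OE and 2.33 in MEIS2-OE.

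LIF had 10.8, 12.6 and 14.5 CPM in ctrl-KO, 12.5, 15.6 and 18.7 CPM in MEIS1-KO and 15.4, 17.7 and 19.1 CPM in MEIS2-KO. All 6 MEIS2-KO libraries exceeded the highest control. The log2 fold change in MEIS2-KO was 0.47 ± 0.10 (edgeR, adjusted p = 0.00177). ICAM1 had 23.5, 24.7 and 26.4 CPM in ctrl-KO, 24.3, 28.4 and 33.8 CPM in MEIS1-KO, and 29.5, 32.4 and 38.1 CPM in MEIS2-KO. Here too MEIS2-KO lay clear of its control, and its log2 fold change was 0.41 ± 0.07 (adjusted p = 0.000225).

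SOD2, with 42.1 to 51.5 CPM in ctrl-KO and 35.2 to 44.4 CPM in MEIS2-KO, fell by 0.24 on the log2 scale (SE 0.06, edgeR, adjusted p = 0.0136), and it no longer passed without MEIS2-KO replicate 4 (0.0510). SOD2 overlaps exons of WTAP and ACAT2 on the other strand, both of which are in the table. REL had 3.46 to 4.01 CPM in ctrl-KO and 2.21 to 3.35 CPM in MEIS2-KO, without overlap, and fell by 0.41 (SE 0.13, adjusted p = 0.0464). REL no longer passed without ctrl-KO replicate 1, 2, 3, 5 or 6 and without MEIS2-KO replicate 1, 2, 5 or 6, with adjusted p of 0.0532 to 0.112, with RLE size factors (0.0604) and with no filter on low counts (0.0547).

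GADD45B, a stress-induced gene and known NF-kB target, did not pass in either knockout, and whether it did depended on the fit. Its libraries had 2.11 to 3.14 CPM in ctrl-KO, 2.98 to 7.44 CPM in MEIS1-KO and 3.21 to 6.02 CPM in MEIS2-KO, and those of MEIS2-KO did not overlap with the control. The spread among libraries of a condition was among the largest of the members with many counts (0.41, SD on the log2 scale). Its log2 fold change was 0.68 ± 0.26 in MEIS1-KO and 0.64 ± 0.26 in MEIS2-KO, with adjusted p of 0.234 and 0.110 in edgeR. For MEIS2-KO it was called when only these 2 groups were fitted (0.66, adjusted p = 0.00283), and when the 3 libraries farthest from their condition were left out (adjusted p = 0.0244), an alternative chosen after the data were seen.

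Beside these differences, the knockouts also differed from ctrl-KO in markers of cell types. Of all tested genes 1.46% passed in MEIS1-KO and 10.0% in MEIS2-KO. In both knockouts 2 of 4 pericyte and fibroblast markers were higher, ACTA2 and COL1A1, and the summed list ranged from 239 to 341 CPM in MEIS1-KO and from 263 to 335 CPM in MEIS2-KO, against 200 to 233 CPM in ctrl-KO, where no library overlapped with either. MEIS1-KO also had 1 of 9 neural stem markers higher and 1 of 5 neuronal markers lower. MEIS2-KO had 2 of 5 endothelial markers higher (sums of 182 to 230 CPM against 148 to 162). Lower were 3 of 9 neural stem, 2 of 5 neuronal and 1 of 5 astrocyte markers, with 1 neural stem marker, VIM, higher. The summed neural stem list was nevertheless higher, at 5037 to 6123 CPM in MEIS2-KO against 4483 to 4985 in ctrl-KO. Neuronal sums were 761 to 940 against 919 to 958 CPM, and astrocyte sums 21.9 to 26.3 against 28.1 to 32.6 CPM. Leukocyte markers did not pass in any direction and summed to 6.24 to 8.11 CPM in both knockouts and 6.48 to 8.18 CPM in ctrl-KO. The part of these markers in the results was not tested.

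MEIS1-KO and MEIS2-KO could hardly be distinguished. No member passed between them, 2 had an unadjusted p under 0.05 (ICAM1, -0.18, and CXCL2, which has almost no counts), and DESeq2 called none. Among all 19689 tested genes, 1119 had an unadjusted p under 0.05 (edgeR). Of all tested genes, 2 were called (0.0102%) and 3 passed (0.0152%). The 2 called were the targeted genes, MEIS1 (log2 fold change -1.35) and MEIS2 (0.94). For IL1A the log2 difference between MEIS1-KO and MEIS2-KO was -0.18 with a 95% interval of -0.43 to 0.06.

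The study combined the systems in a contrast, the overexpression effect minus the knockout effect. It is positive wherever the first exceeds the second, so a gene need not fall in the knockout. For MEIS1, 3 members were called (8.11%, against 1.41% of all genes), ICAM1 with 1.01 ± 0.10, TNFAIP3 with 1.004 ± 0.16 and TLR4 with 0.87 ± 0.09 (edgeR, adjusted p = 8.28e-10, 3.05e-05 and 9.66e-09). They were also called without MEIS1-OE replicate 3. No other member passed (3.48% of all genes did). In MEIS1-KO against ctrl-KO none of the 3 passed, and of them TNFAIP3 had a negative log2 fold change (-0.15). The contrast uses the same libraries as the pairwise comparisons above.

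For MEIS2, 3 members were called (8.11%, against 0.985% of all genes): TNFAIP3 (0.79 ± 0.16), TLR4 (0.73 ± 0.09) and, in the opposite direction, IL1A (-1.02 ± 0.19), with adjusted p of 0.00164, 1.19e-06 and 0.000699 in edgeR. The value of IL1A combines -0.26 in MEIS2-OE, which did not pass (edgeR, adjusted p = 0.686), with 0.75 in MEIS2-KO. ICAM1 passed without being called (10.8% of members passed, against 2.57% of all genes). Its value of -0.39 ± 0.10 (adjusted p = 0.0195) combines a log2 fold change of 0.02 in MEIS2-OE with 0.41 in MEIS2-KO, and it no longer passed without MEIS2-KO replicate 6 (0.0504). ICAM1 therefore had a positive MEIS1 contrast and a negative MEIS2 contrast.

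**Figure D3:**
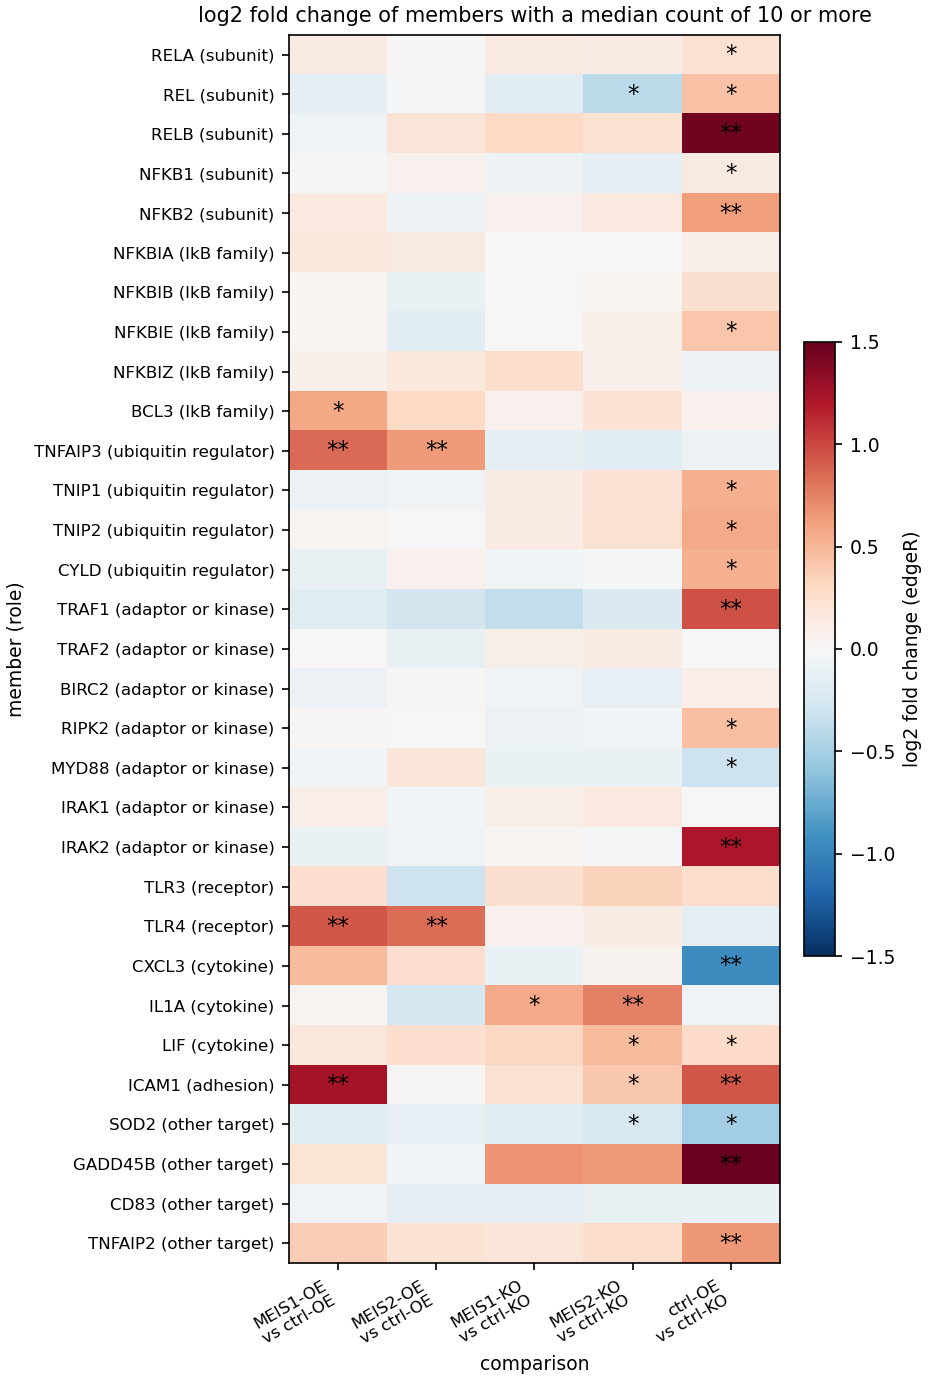
log2 fold change (edgeR, colour scale from -1.5 to 1.5) of the 31 members with a median of at least 10 counts per library, in 5 comparisons, with 1 star for an adjusted p under 0.05 and 2 stars where the absolute log2 fold change also exceeded 0.58. The last column, ctrl-OE against ctrl-KO, holds most of the stars, and the MEIS comparisons hold few.

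The comparison of both controls, ctrl-OE with ctrl-KO, holds no difference in MEIS targeting, and the systems differ there in vectors and virus dose, which cannot be told apart. The level of MEIS RNA did differ. MEIS1 was lower in ctrl-OE (log2 fold change -0.53, edgeR, adjusted p = 5.84e-08), as was MEIS2 (-0.19, adjusted p = 0.00159). Whether this bears on the members was not tested. The comparison moved more members than any comparison of MEIS against its control: 8 of 37 were called (21.6%) and 19 passed (51.4%). Among all tested genes 22.1% were called and 51.4% passed, so the members' shares were near the background. By direction, 16 members were higher in ctrl-OE (27.5% of all genes passed as higher) and 3 lower (23.9% of all genes passed as lower). The median log2 fold change of the members was 0.24 and that of all genes 0.05.

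All 5 subunits passed and were higher in ctrl-OE. RELB (chr19:45504719-45541450, + strand, GRCh37), the partner of p52 in the non-canonical pathway, had 1.56, 1.95 and 2.40 CPM in ctrl-KO (lowest, median, highest) and 3.62, 5.57 and 6.33 CPM in ctrl-OE, with a log2 fold change of 1.44 ± 0.17 (edgeR, adjusted p = 4.06e-09). NFKB2 (chr10:104153867-104162281, + strand), the gene of that p52, had 18.7, 21.5 and 26.2 CPM and 29.3, 33.8 and 38.9 CPM, a log2 fold change of 0.63 ± 0.10 (adjusted p = 6.98e-07). In neither gene did the controls overlap. RELB ranged from 3.87 to 7.38 CPM in MEIS1-OE and MEIS2-OE and from 1.37 to 3.95 CPM in MEIS1-KO and MEIS2-KO, so that these ranges only just met.

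The other subunits differed less, with log2 fold changes of 0.44 for REL, 0.23 for RELA and 0.14 for NFKB1 (edgeR, adjusted p = 0.00302, 0.00559 and 0.0300). NFKB1 no longer passed without ctrl-OE replicate 1 or without ctrl-KO replicate 2, 3 or 5, with adjusted p of 0.0538 to 0.0875. RELA had 57.4, 60.3 and 70.0 CPM in ctrl-OE and 47.5, 52.5 and 57.3 CPM in ctrl-KO, just without overlap. One of the vectors of the activation system encodes a fusion with activation domains of p65, the product of RELA, and of HSF1. HSF1 had 86.6 to 185 CPM in ctrl-OE and 40.6 to 62.7 CPM in ctrl-KO, a log2 fold change of 1.22 ± 0.16 (adjusted p = 5.69e-08), and whether counts on RELA or HSF1 hold reads of the vector was not tested.

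Among the IkB family, only NFKBIE passed (0.42 ± 0.09, edgeR, adjusted p = 0.000214). NFKBIA, the main inhibitor and an immediate target of NF-kB, had 15.3, 18.0 and 21.0 CPM in ctrl-KO and 17.1, 18.4 and 22.4 CPM in ctrl-OE, and its log2 fold change was 0.07 with a 95% interval of -0.11 to 0.25. The group means of NFKBIA over all 6 conditions lay between 18.0 and 21.1 CPM. Of the ubiquitin regulators, TNIP2 (0.57), TNIP1 (0.54), which binds A20, and CYLD (0.54) passed and were higher in ctrl-OE in 6 of 6 libraries, with adjusted p of 1.14e-07, 1.89e-07 and 1.37e-08. TNFAIP3 overlapped between the controls, at 3.71 to 4.68 CPM in ctrl-OE and 3.53 to 5.31 CPM in ctrl-KO.

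Of the 8 adaptors and kinases, 3 were higher and 1 lower. IRAK2 (chr3:10206603-10285429, + strand, GRCh37), a kinase-like partner of IRAK1, had 1.31, 1.59 and 1.74 CPM in ctrl-KO and 3.19, 3.60 and 3.91 CPM in ctrl-OE, without overlap, and a log2 fold change of 1.21 ± 0.15 (edgeR, adjusted p = 1.44e-08). TRAF1 (chr9:123664671-123691451, - strand), an adaptor of TNF receptors, had only 8 to 35 counts per library, 0.463, 0.506 and 0.629 CPM in ctrl-KO and 0.537, 1.03 and 1.41 CPM in ctrl-OE. Its log2 fold change was 0.96 ± 0.26 (adjusted p = 0.00170), and 1 ctrl-OE library fell among the controls of the knockout. RIPK2, the kinase of NOD receptors, was higher (0.45, adjusted p = 2.95e-08), and MYD88, the shared adaptor of most Toll-like receptors and the IL-1 receptor, was lower (-0.31, adjusted p = 0.00139). TRAF2, IRAK1 and BIRC2 had log2 fold changes of -0.01, 0.01 and 0.10 and did not pass.

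Neither receptor passed. TLR4, which rose under both MEIS factors, had a log2 fold change of -0.14 with a 95% interval of -0.27 to -0.003 (edgeR, adjusted p = 0.0786). ICAM1 in ctrl-OE was 1.91 times its level in ctrl-KO, a log2 fold change of 0.93 ± 0.07 (adjusted p = 3.03e-14), with every library of ctrl-OE above every library of ctrl-KO. The second adhesion gene, VCAM1, had 4 to 18 counts per library in the controls, which overlapped. Across all 6 conditions ICAM1 thus had the widest range of the members with a median of at least 100 counts, from a mean of 24.8 CPM in ctrl-KO to 112 CPM in MEIS1-OE (4.52-fold).

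Of the cytokines tested, CXCL3 was lower and LIF higher in ctrl-OE. CXCL3 (chr4:74902306-74904524, - strand, GRCh37), a neutrophil chemokine, had 0.521, 0.772 and 1.30 CPM in ctrl-KO and 0.279, 0.409 and 0.656 CPM in ctrl-OE, which overlap, with a log2 fold change of -0.94 ± 0.27 (edgeR, adjusted p = 0.00344). These values rest on 6 to 27 counts per library, and CXCL1, CXCL2 and CXCL3 are near-identical copies whose reads could be split between them. LIF had a log2 fold change of 0.29 ± 0.10 (adjusted p = 0.0145), which was lost without ctrl-OE replicate 2 (0.0508). IL1A overlapped, with a log2 fold change of -0.05 and a 95% interval of -0.33 to 0.22.

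The other targets included the largest difference of the tested members, GADD45B. This gene (chr19:2476120-2478257, + strand, GRCh37) had 2.11, 2.74 and 3.14 CPM in ctrl-KO and 4.61, 7.20 and 12.4 CPM in ctrl-OE, with a log2 fold change of 1.49 ± 0.24 (edgeR, adjusted p = 1.90e-06). The groups did not overlap, and the log2 fold change was 1.29 to 1.59 with each library left out in turn. TNFAIP2 (chr14:103587813-103603776, + strand) had 0.619, 0.887 and 1.40 CPM and 0.760, 1.53 and 2.04 CPM, which overlap, with a log2 fold change of 0.65 ± 0.22 (adjusted p = 0.0119), and it fell below the fold threshold without ctrl-OE replicate 3 (0.54), without ctrl-KO replicate 2 (0.56) and in DESeq2 with ashr shrinkage (0.51). SOD2 was lower in ctrl-OE, with 30.4, 32.5 and 35.5 CPM against 42.1, 46.1 and 51.5 CPM in ctrl-KO, no overlap and a log2 fold change of -0.52 ± 0.06 (adjusted p = 7.13e-09). CD83 had a log2 fold change of -0.10 and did not pass, and PTGS2 had too few counts.

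**Figure D4:**
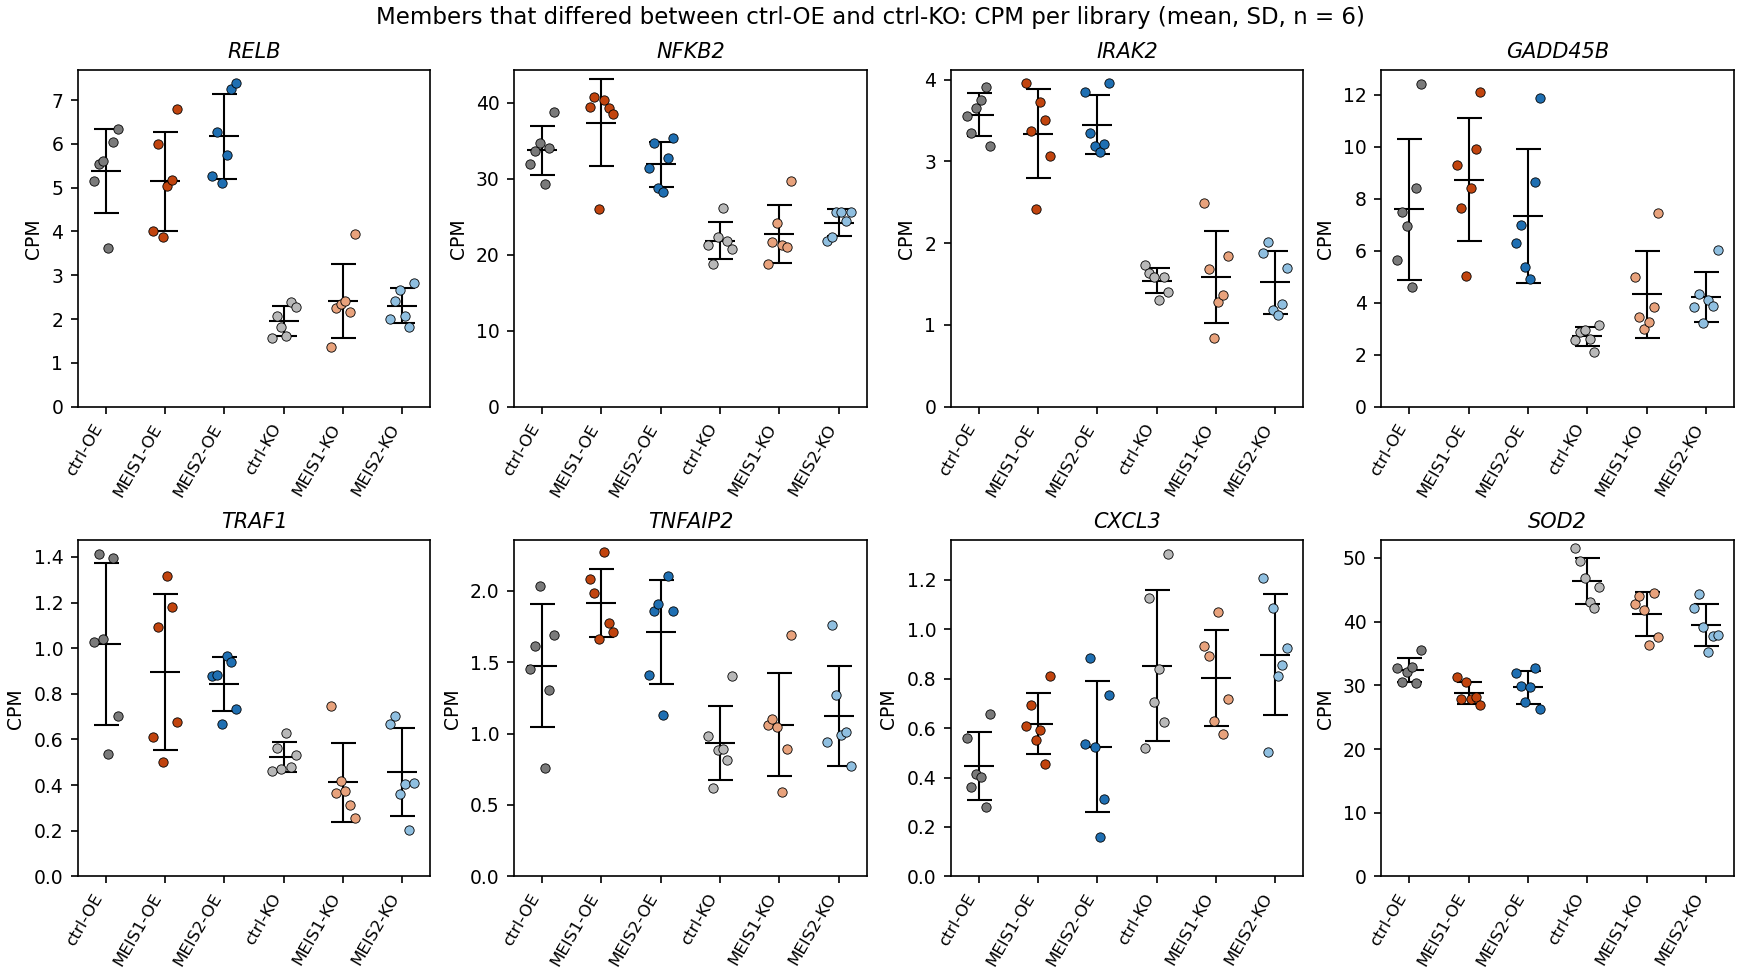
CPM of RELB, NFKB2, IRAK2, GADD45B, TRAF1, TNFAIP2, CXCL3 and SOD2 in each of the 36 libraries by condition (points), with the mean and SD (bars, n = 6). The first 4 genes are higher in the 3 activation groups than in most knockout libraries, and SOD2 is lower in ctrl-OE than in ctrl-KO, whereas TRAF1, TNFAIP2 and CXCL3 overlap between the controls.

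The controls also differed in cell type markers, in a comparison where 51.4% of all tested genes passed. Of 9 neural stem markers, 7 were lower and 1 higher in ctrl-OE, and their sum was 3039 to 3909 CPM in ctrl-OE and 4483 to 4985 CPM in ctrl-KO. SOX2, the defining factor of these cells, averaged 114 and 300 CPM. Endothelial markers were lower for 4 of 5 (sums of 92.0 to 120 and 148 to 162 CPM), and astrocyte markers were lower for 3 of 5 and higher for 1 (sums of 8.46 to 14.7 and 28.1 to 32.6 CPM). Of 5 tested neuronal markers 2 were lower and 1 higher, with sums of 379 to 557 and 919 to 958 CPM. MAP2 averaged 265 CPM in ctrl-OE and 756 in ctrl-KO, TUBB3 168 and 177, and SYP 5.65 and 2.13. The leukocyte list had 1 of 7 markers higher and sums that overlapped, 6.73 to 10.2 and 6.48 to 8.18 CPM. The part of these markers in the members' differences was not tested.

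A further 64 pathway genes that are not members were examined in the same fit, of which 58 could be tested. In MEIS1-OE, 2 were called (3.45%, against 2.84% of all genes) and 4 passed (6.90%, against 9.10% of all genes), all higher. IL32, which encodes a cytokine, rose from 0.281 to 0.651 CPM in ctrl-OE to 1.78 to 3.06 CPM, with a log2 fold change of 2.16 ± 0.23 (edgeR, adjusted p = 2.68e-09), and MEIS2-OE had 0.269 to 0.929 CPM. IL6R, the IL-6 receptor gene, rose by 0.72 ± 0.14 (adjusted p = 0.000506). None was called or passed in MEIS2-OE. There 3 of the 58 had an unadjusted p under 0.05 in edgeR, as had 1505 of all 19689 tested genes.

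In the knockouts, PLAU, the urokinase gene, was called in both, with log2 fold changes of 0.71 ± 0.13 in MEIS1-KO and 0.86 ± 0.13 in MEIS2-KO (edgeR, adjusted p = 0.00114 and 2.40e-05). It was the only further gene called in MEIS1-KO, where 3 passed (5.17%, against 1.46% of all genes). In MEIS2-KO, 4 were called (6.90%, against 1.58% of all genes) and 9 passed (15.5%, against 10.0% of all genes), 8 of them higher. The others called were IER3 (0.70), an early response gene, IL6R (0.78) and TNFRSF12A (0.71), the TWEAK receptor gene (edgeR, adjusted p = 0.000897, 0.0122 and 0.0100). IL6R and TNFRSF12A each fell below the fold threshold in 1 alternative setting, with log2 fold changes of 0.52 and 0.46.

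Between the controls, 15 of the 58 further genes were called (25.9%, against 22.1% of all genes), 14 of them higher in ctrl-OE, and 31 passed (53.4%, against 51.4%). By smallest p these were led by the LIF receptor gene LIFR, which was lower (-0.98), and by IL6R (1.86), TLR6 (2.00), TNFRSF12A (1.62), TLR1 (2.15) and TICAM1 (1.18), an adaptor of TLR3 and TLR4. IL6R had 0.724 to 1.85 CPM in ctrl-KO and 3.46 to 5.35 CPM in ctrl-OE, and TLR6 had 0.338 to 0.675 and 1.41 to 2.20 CPM. MAP3K14 and IRF1 lay just above the fold threshold (both 0.59), and fell below it without any of 4 libraries each, at 0.54 to 0.57 for MAP3K14 (ctrl-OE replicate 5 or 6, ctrl-KO replicate 2 or 5) and 0.55 to 0.58 for IRF1 (ctrl-OE replicate 3 or 4, ctrl-KO replicate 1 or 2).

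Members that passed in no comparison are given by their group means. Among the IkB genes the group means of NFKBIB lay between 9.10 and 11.1 CPM and those of NFKBIZ between 7.20 and 9.19 CPM. The ratio of the highest to the lowest group mean was 1.13 for IRAK1, 1.17 for NFKBIA, 1.18 for BIRC2 and CD83, and 1.19 for TRAF2. For IRAK1 and TRAF2 this went together with a wide spread inside conditions (SD of 0.24 and 0.30 on the log2 scale). BIRC2 was among the most even members (0.10), as were NFKB1 and RIPK2 (0.08 and 0.09), which did pass between the controls. Group means of the scarce members spanned 0.27 to 0.49 CPM for VCAM1, 0.0869 to 0.207 CPM for BIRC3, 0.0391 to 0.219 CPM for CCL2 and 0.0511 to 0.133 CPM for TNF.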

How the data were processed

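RNA of hNSC was sequenced by the authors as stranded poly-A libraries with paired reads. As deposited by the authors, the values are raw counts of reads per gene symbol, aligned to hg19 with STAR (2.4.2a in the series' design text, 2.7.0a beside Trimmomatic 0.39 in the submitters' processing notes) and counted with HTSeq. The annotation and strand setting of the counting are not given in the sources used here. Each of the 36 columns was matched to its sample by label.

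Genes with at least 10 summed counts were tested with edgeR 4.0.16 (limma 3.58.1, R 4.3.3): TMM factors, 1 quasi-likelihood fit of all 6 conditions, prior count 0.125, two-sided tests and Benjamini-Hochberg adjustment over 19689 genes. SE is the log2 fold change divided by the root of F. The fit was tested on simulated data. Members and further lists were chosen with earlier results of these data known. Members called in any comparison were given by library, those that only passed by fold change, and at most 8 further genes between the controls by smallest p. GADD45B in the knockouts, NFKB2, NFKBIE, CYLD and RELA in the activation groups and the members with low unadjusted p were named after their values were seen. Alternatives were RLE factors, filterByExpr or no filter, prior count 2, the replicate number as block, only the groups compared, adjusted p alone, DESeq2 1.42.0 with and without ashr 2.2.63, and each library left out. Leaving out 3 libraries together was added after seeing the data. Libraries of a condition differed by more than sampling noise (chi-square per degree of freedom 2.63 to 36.0), so none was a duplicate. Positions are from GENCODE v44 lifted to GRCh37, promoters from RefSeq (GRCh38.p14), and figures and motif searches were made with Python 3.11.15 and matplotlib 3.10.9.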

Additional observations from a re-analysis of the deposited data

Results flagged for a closer look

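Of 222 sets of 6 libraries (37 members in 6 conditions), 21 had a library farther from the others than Dixon's 95% criterion allows. Chance flags about 1 in 20 such sets, and genes with few counts reach the criterion with 1 count. In MEIS1-OE, replicate 3 was the low library for 7 members: RELA (53.4 CPM, next 68.4), NFKB2 (26.0, next 38.5), NFKBIB (7.25, next 11.1), TNIP1 (34.4, next 45.4), TNIP2 (20.8, next 28.4), TRAF2 (14.8, next 25.6) and IRAK1 (65.6, next 98.7). The tests of these genes without it are given above where a result changed.

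High libraries were NFKBIA in MEIS2-OE replicate 3 (24.5 CPM), NFKBIZ in ctrl-KO replicate 6 (8.98 CPM), TNIP1 in MEIS1-KO replicate 6 (43.6 CPM) and TRAF1 in MEIS1-KO replicate 1 (0.746 CPM, 12 counts). Low libraries were BCL3 in MEIS1-KO replicate 1 (0.622 CPM), IL1A in MEIS2-KO replicate 3 (3.30 CPM, next 4.86) and ICAM1 in MEIS2-OE replicate 1 (41.3 CPM, next 46.9).

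The others rest on at most 6 counts: TNF in MEIS1-KO replicate 1 (0.373 CPM), CCL2 in ctrl-OE replicate 3 (0.166 CPM) and in ctrl-KO replicate 5 (0.192 CPM), CXCL2 in MEIS1-OE replicate 5 (0.0455 CPM) and in MEIS2-OE replicate 2 (0.0465 CPM), and PTGS2 in ctrl-OE replicate 6 (0.0469 CPM) and in ctrl-KO replicate 6 (0.145 CPM).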

How the results depend on the processing

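Of 40 results of single members (a gene in a comparison), each with an adjusted p under 0.05, none changed direction and 31 stayed on their side of the thresholds or moved past the fold threshold under every alternative run. The other 9 are given in the report with the libraries or settings under which they were lost. RLE size factors shifted the median of all genes by at most 0.02 on the log2 scale. By adjusted p alone, 1 member was counted in MEIS1-KO, 5 in MEIS2-KO, 19 between the controls and 2 between MEIS1-OE and MEIS2-OE. With only the groups compared, and without the 3 libraries farthest from their condition, 2 members were called in MEIS2-KO. Leaving out each library gave 0 to 1 members in MEIS1-KO and 1 to 2 between MEIS1-OE and MEIS2-OE, 3 to 4 in MEIS1-OE and 7 to 10 between the controls.

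Deviations from the condition mean were hardly correlated between libraries that share a replicate number (mean correlation 0.0361 over 90 pairs, 16 of them above 0.1, against -0.00732 for other pairs), so the number was not taken as pairing. With it as a block, GADD45B was added in MEIS1-KO (log2 fold change 0.65, edgeR adjusted p = 0.0203, 1 member called) and in MEIS2-KO (0.65, adjusted p = 0.00681, 2 members called), and in the MEIS2 contrast (-0.70, adjusted p = 0.0494), and no member was lost. The cause of these changes was not tested. Depth limits IL6, IL1B, CXCL1, CXCL2, CCL2, TNF, PTGS2 and BIRC3, with a median of at most 2 counts per library.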
